A study of Mus musculus with 6 samples.

Results

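The superoxide dismutases, catalase and glutathione peroxidases are the enzymes that remove superoxide and hydrogen peroxide from cells. They were taken here by symbol as 9 of the 50385 genes in the count table, namely Sod1, Sod2, Sod3, Cat, Gpx1, Gpx3, Gpx4, Gpx7 and Gpx8. All 9 were above 0 in every library and all 9 were tested. The hearts came from male Mdx/Utrn dKO mice, which lack dystrophin and its relative utrophin and serve as a model of Duchenne muscular dystrophy. The mice were 2 to 3 months old when treatment began. In the setanaxib group (3 libraries) mice were given 60 mg/kg of setanaxib, which the labels call a Nox4 inhibitor, each day by oral gavage for 12 weeks. In the vehicle group (3 libraries) mice received corn oil by the same route for 12 weeks. Every mouse, treated or not, carried the double knockout, so there is no healthy heart to set the levels against. RNA was taken from heart tissue as a whole, and the labels do not say which chambers were included. The titles number the mice without saying in words that each library is 1 animal, so the p-values below measure the spread between these libraries.

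Superoxide is made by the respiratory chain and by NADPH oxidases. Superoxide dismutases turn it into hydrogen peroxide: Sod1 with copper and zinc in the cytosol, Sod2 with manganese in the mitochondrial matrix, and Sod3 with copper and zinc outside the cell, bound to the matrix. Hydrogen peroxide is then broken down by catalase (Cat) in peroxisomes and by glutathione peroxidases, a family named for the use of glutathione as electron donor. Nox4, the oxidase that setanaxib was given to inhibit, is known for releasing hydrogen peroxide rather than superoxide. The question for these genes is whether transcripts of these superoxide and peroxide removing enzymes differed between treated and untreated dystrophic hearts.

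The glutathione peroxidases fall into 2 kinds by the codon at their catalytic position, and the results below are ordered by that difference. Gpx1, Gpx3 and Gpx4 carry a TGA codon there, which the annotation marks as selenocysteine, whereas Gpx7 and Gpx8 carry a cysteine codon at the aligned position. The 33 coding bases around it are shown 5′ to 3′ from GENCODE M21 (GRCm38), with the catalytic codon in capitals.
Gpx1 (codon 47, chr9:108339451-108339453, plus strand): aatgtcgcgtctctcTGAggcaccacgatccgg
Gpx3 (codon 73, chr11:54907256-54907258, plus strand): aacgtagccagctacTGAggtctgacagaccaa
Gpx4 (codon 129, chr10:80054737-80054739, plus strand): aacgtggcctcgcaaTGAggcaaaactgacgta
Gpx7 (codon 56, chr4:108403430-108403432, minus strand): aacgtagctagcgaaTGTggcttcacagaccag
Gpx8 (codon 79, chr13:113045661-113045663, minus strand): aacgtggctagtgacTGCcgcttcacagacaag
A TGA codon is otherwise a stop, and reading it as selenocysteine needs a dedicated set of synthesis and decoding proteins, which are described with the supporting genes.

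Libraries held 110803307 to 154003318 estimated counts, and the member with fewest, Gpx8, had 128 to 266 in a library. Summed heart muscle markers lay between 32658 and 46037 CPM (counts relative to library size after TMM scaling) in the setanaxib libraries and between 40527 and 44455 CPM in the vehicle libraries. The lowest of the 6 sums was that of setanaxib replicate 3. Setanaxib replicate 3 stood apart from the other 5 libraries in markers of atrium, fat and lung. All 3 atrial markers found were highest there, summing to 2914 CPM against 66.5 to 568 CPM elsewhere. All 7 adipocyte markers were highest there too, with a sum of 213 CPM against 0.456 to 7.31 CPM, but the defining genes Adipoq and Lep were at 0.0911 and 1.09 CPM there and at 0 in the other 5. Of 5 lung epithelium markers, 4 were highest there, with a sum of 606 CPM against 0 to 19.8 CPM, and the alveolar genes Sftpc, Sftpb and Sftpa1 were at 1.34, 2.76 and 3.73 CPM there and at 0 in the other 5. Values without this library are therefore given beside those it moves by more than 1.5 times, a choice made after seeing the data.

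Levels between genes were compared as CPM per kilobase of the longest coding transcript. In vehicle hearts the order was Gpx4, Gpx3, Sod1, Sod2, Cat, Gpx1, Sod3, Gpx7 and Gpx8. Gpx4, which reduces lipid peroxides in membranes, averaged 182 ± 40.3 CPM per kilobase with setanaxib and 203 ± 25.2 with vehicle (SD, n = 3 each). Gpx3, the secreted plasma glutathione peroxidase, averaged 352 ± 369 CPM per kilobase with setanaxib and 172 ± 22.5 with vehicle. Setanaxib replicates 1 to 3 were at 130, 149 and 778 CPM per kilobase for Gpx3. In vehicle hearts the ranges of Gpx4 and Gpx3 overlapped, and no other neighbours in the order did. At the low end, Gpx7 averaged 3.05 ± 0.638 CPM per kilobase with setanaxib and 3.11 ± 0.596 with vehicle. Gpx8 averaged 1.47 ± 0.396 CPM per kilobase with setanaxib and 1.52 ± 0.444 with vehicle. Gpx7 and Gpx8, the enzymes with a cysteine codon, are known as resident proteins of the endoplasmic reticulum. Together the 5 enzymes from Sod1 down to Sod3 lay between 8.70 and 142 CPM per kilobase over all 6 libraries. With the union of all annotated exons as length, Gpx3 was first and Sod1 sixth.

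**Figure D1:**
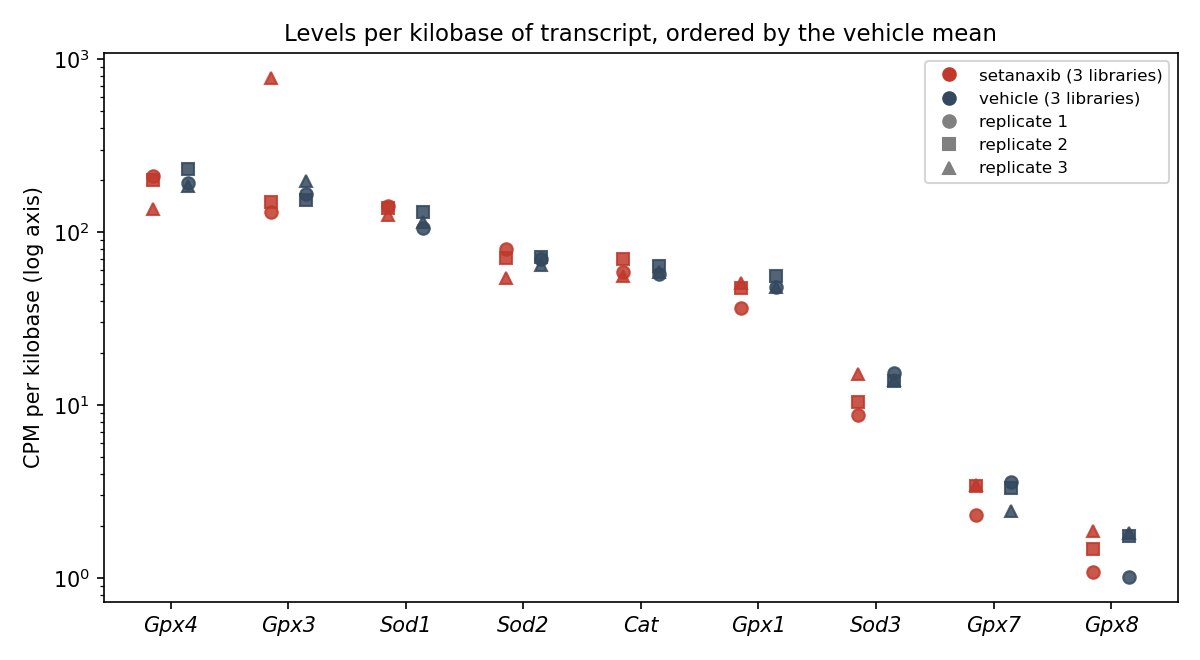
CPM per kilobase of the longest coding transcript (log axis) for the 9 genes in each library, ordered by the vehicle mean, with setanaxib libraries in red on the left of each gene and vehicle libraries in dark blue on the right. Gpx3 in setanaxib replicate 3 lies at 778 CPM per kilobase, above every other value, and Gpx7 and Gpx8 lie below 4.

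Of the 9 enzymes, 3 were higher and 6 lower with setanaxib, and edgeR called 0 of them, where it called 0.00488% of all tested genes. An unadjusted p under 0.05 was reached by 0 of 9 members, against 8.46% of all genes (3.76% higher and 4.69% lower), and DESeq2 and limma-voom also called 0 members. The groups overlapped for every member, whereas they did not overlap for 17.6% of all genes (8.11% higher and 9.46% lower). The median log2 fold change of the members was -0.02, beside 0.01 for all tested genes, and the median size of change was 0.15 for members and 0.20 for all genes. The plot of values by library shows each enzyme on its own scale.

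**Figure D2:**
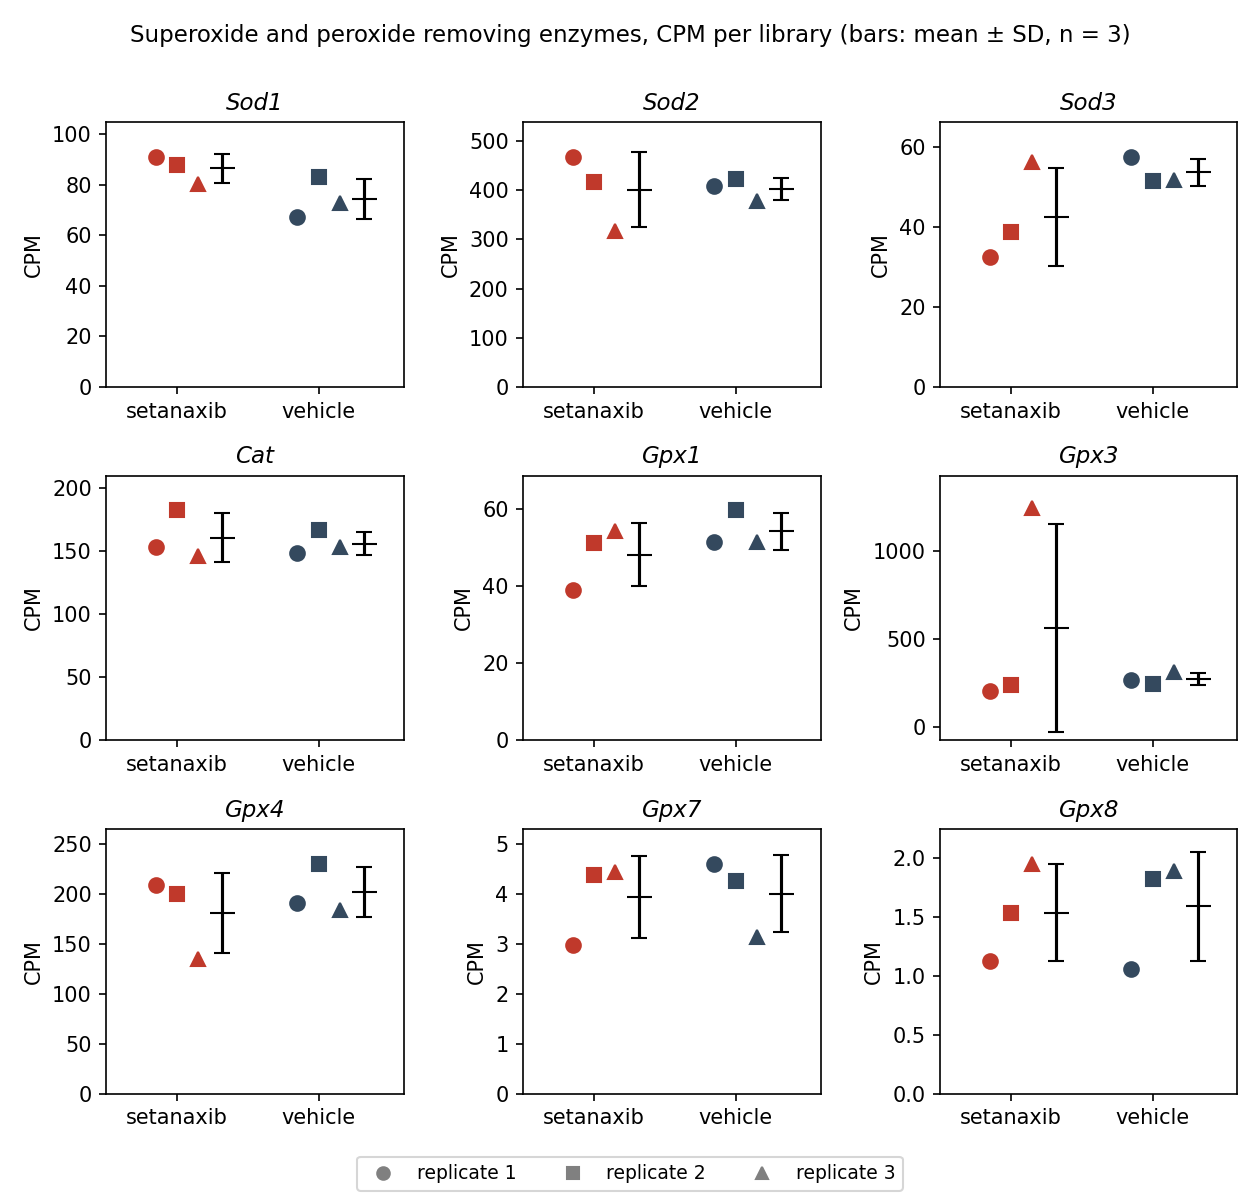
CPM of each enzyme in the 3 setanaxib libraries (red, left) and the 3 vehicle libraries (dark blue, right), with symbols for replicates 1 to 3 and bars for the mean ± SD (n = 3). The groups overlap in all 9 panels, and the Gpx3 panel is set by setanaxib replicate 3 at 1240 CPM.

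Sod1 (ENSMUSG00000022982), the cytosolic superoxide dismutase, had the lowest p of the members. It was at 91.2, 88.0 and 80.4 CPM in setanaxib replicates 1 to 3, against 67.3, 83.2 and 72.8 CPM in vehicle replicates 1 to 3. Setanaxib replicates 1 and 2 were above all vehicle libraries and setanaxib replicate 3 was below vehicle replicate 2, so the groups overlapped by 1 library. The log2 fold change was 0.22 (SE 0.11, 95% interval -0.05 to 0.48, edgeR adjusted p = 0.665), and it stayed between 0.14 and 0.30 when any 1 library was left out. Sod1 overlaps Scaf4 on the opposite strand, and reads of such a pair cannot be told apart without strand. Scaf4 held 4174 to 5515 estimated counts with setanaxib and 4113 to 4564 with vehicle. Sod1 held 10593 to 11605 with setanaxib and 8171 to 12156 with vehicle.

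The promoters of the members were searched for the core of the antioxidant response element, the sequence bound by the redox-responsive factor Nrf2 (gene Nfe2l2). The motif, TGAC followed by any 3 bases and GC, was searched on both strands in windows from 250 bases before to 50 after the start site, in which 12.4% of 32851 RefSeq promoters hold it. The 8 members with a promoter in that table had 11 promoters. Sod3 had none there and was not searched. Sod1 was the 1 member with a match, 48 to 56 bases before the start. It is shown because it belongs to the member of lowest p, as 69 bases of chr16:90220676-90220744 (GRCm38.p6, plus strand) with the match in capitals, which reads as the motif on the minus strand.
Sod1 promoter: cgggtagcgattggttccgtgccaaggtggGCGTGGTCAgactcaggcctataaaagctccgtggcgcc
A match is a description of these letters. Nfe2l2 itself, named here for the motif and outside the rule for named genes, was at 45.8, 61.9 and 52.6 CPM in setanaxib replicates 1 to 3, against 58.5, 58.6 and 55.0 CPM in vehicle replicates 1 to 3, with overlapping groups.

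Sod2 (ENSMUSG00000006818), the mitochondrial enzyme, was at 469, 417 and 318 CPM in setanaxib replicates 1 to 3, against 408, 423 and 379 CPM in vehicle replicates 1 to 3. The setanaxib libraries spanned the vehicle range on both sides, with setanaxib replicate 3 lowest of all 6. The group means were nearly equal, at 401 ± 76.5 CPM with setanaxib and 403 ± 22.4 CPM with vehicle (SD, n = 3 each). The log2 fold change was -0.01 (95% interval -0.38 to 0.37, edgeR adjusted p = 0.997), an interval that still includes a change of 1.29-fold upward. Without setanaxib replicate 3 it was 0.14.

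Sod3 (ENSMUSG00000072941), the extracellular enzyme, was at 32.5, 38.7 and 56.2 CPM in setanaxib replicates 1 to 3, against 57.6, 51.4 and 51.8 CPM in vehicle replicates 1 to 3. Setanaxib replicates 1 and 2 were below every vehicle library, while setanaxib replicate 3 was within the vehicle range. The log2 fold change was -0.34 (SE 0.20, 95% interval -0.83 to 0.16, edgeR adjusted p = 0.723). Without setanaxib replicate 3 it was -0.59 (edgeR adjusted p = 0.166, SE 0.11). Under that setting DESeq2 called Sod3 lower (adjusted p = 0.000124), in a fit that called 6.28% of all genes, 4.08% lower, while DESeq2 on all 6 libraries did not call it (adjusted p = 0.627). In whole hearts, fewer cells of a type and less RNA per cell cannot be told apart.

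Sod3 is known to be made by vessel wall cells and fibroblasts, so markers of both are given beside it. Of 7 smooth muscle and pericyte markers, 6 were lower, and the list's summed level was 738, 776 and 511 CPM in setanaxib replicates 1 to 3, against 847, 701 and 860 CPM in vehicle replicates 1 to 3. Of 8 fibroblast markers, 7 were lower, with sums of 1439, 1733 and 2688 CPM with setanaxib, against 2455, 1744 and 2426 CPM with vehicle. No marker in either list was at 0 throughout a group. In setanaxib replicate 3, Gsn alone made up 1676 CPM of the fibroblast sum, and 2 of the 8 markers were highest in that library. All 8 fibroblast markers, like Sod3, were higher in that library than in setanaxib replicates 1 and 2. Col1a1, Col1a2, Col3a1 and Lum were there at 224, 109, 164 and 31.6 CPM, below every vehicle library. Dcn and Pdgfra were there at 397 and 74.1 CPM, within the vehicle range, and Gsn and Tcf21 were the 2 highest there. The smooth muscle and pericyte sum was lowest in setanaxib replicate 3, where Rgs5 and Acta2 were at 267 and 67.8 CPM, their lowest values. Tagln, Myh11, Cnn1, Pdgfrb and Notch3 were higher there than in setanaxib replicates 1 and 2. The part of these cells in the Sod3 values was not tested.

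Cat (ENSMUSG00000027187), the peroxisomal catalase, was at 153, 182 and 146 CPM in setanaxib replicates 1 to 3, against 148, 166 and 153 CPM in vehicle replicates 1 to 3. Setanaxib replicate 2 was highest and setanaxib replicate 3 lowest of the 6, and all values lay within 1.25-fold of each other in either group. For catalase the log2 fold change was 0.04 (SE 0.11, 95% interval -0.23 to 0.32, edgeR adjusted p = 0.956). The upper end of this interval was a change of 1.246-fold upward. The log2 fold change was 0.11 without setanaxib replicate 3, with a 95% interval of -0.14 to 0.36 that reaches further upward. Red blood cells are rich in catalase, and summed erythroid markers were at 3815, 4849 and 3301 CPM with setanaxib and at 2767, 5251 and 3646 CPM with vehicle. Cat was highest in setanaxib replicate 2 and vehicle replicate 2, the same libraries in which the erythroid sum was highest in each group. The part of blood in the Cat values was not tested.

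Among the selenium enzymes, Gpx1 (ENSMUSG00000063856), the cytosolic and mitochondrial form, was at 38.8, 51.1 and 54.2 CPM in setanaxib replicates 1 to 3, against 51.3, 59.6 and 51.5 CPM in vehicle replicates 1 to 3. Setanaxib replicate 1 was the lowest library, and setanaxib replicate 3 was above vehicle replicates 1 and 3. Its log2 fold change was -0.17 (SE 0.15, 95% interval -0.53 to 0.18, edgeR adjusted p = 0.816), and it lay between -0.26 and -0.04 when any 1 library was left out.

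Gpx4 (ENSMUSG00000075706), the lipid peroxide reducing enzyme, was at 209, 200 and 135 CPM in setanaxib replicates 1 to 3, against 191, 230 and 183 CPM in vehicle replicates 1 to 3. Setanaxib replicate 3 was the lowest library, and the other setanaxib libraries lay inside the vehicle range. The log2 fold change was -0.15 (SE 0.19, 95% interval -0.61 to 0.30, edgeR adjusted p = 0.884), and without setanaxib replicate 3 it was 0.02. Sod2, Cat and Gpx4 were lowest in setanaxib replicate 3, as 23.9% of all tested genes were. The summed heart muscle markers were also lowest there. Of these markers, Tnnt2, Actc1, Myl2, Tnni3 and Pln were each lowest in that library, and Myh6, Ryr2 and Myh7 were not. The part of heart muscle in the Sod2, Cat and Gpx4 values was not tested. The pseudogene Gpx4-ps2 held 22.9% to 25.9% as many estimated counts as Gpx4 in every library. The pair may share reads, so the level of Gpx4 is uncertain.

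Gpx3 (ENSMUSG00000018339), the secreted form, had the widest spread of the members. It was at 207, 238 and 1240 CPM in setanaxib replicates 1 to 3, against 266, 244 and 314 CPM in vehicle replicates 1 to 3. Setanaxib replicates 1 and 2 were below all vehicle libraries, and setanaxib replicate 3 was 3.95 times the highest of the other libraries. A ratio that large or larger in that library occurred for 119 of the 20472 tested genes, or 0.581%. Over all 6 libraries the log2 fold change was 1.03 (SE 0.70, 95% interval -0.67 to 2.73, edgeR adjusted p = 0.758). Without setanaxib replicate 3 the direction turned, to -0.30 (edgeR adjusted p = 0.381, SE 0.13), and limma-voom on all 6 libraries gave 0.53.

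Markers of other tissues were highest in the same library as Gpx3. The atrial light chain Myl7 was at 0.605, 1.33 and 637 CPM in setanaxib replicates 1 to 3, against 23.3, 0.103 and 21.4 CPM in vehicle replicates 1 to 3. The fat droplet gene Cidec was at 0, 0.205 and 50.2 CPM with setanaxib, against 1.61, 0 and 1.71 CPM with vehicle. The airway secretory gene Scgb1a1 was at 0.102, 0.114 and 598 CPM with setanaxib, against 3.89, 0 and 19.6 CPM with vehicle. Gpx3 and these 3 markers were all highest in setanaxib replicate 3, and within the vehicle group they were all lowest in replicate 2. The part of atrial, fat or lung tissue in the Gpx3 values was not tested. Gpx2, an epithelial glutathione peroxidase outside the 9, was at 115 estimated counts in setanaxib replicate 3 and listed at 0 in the other 5 libraries. Gpx5 and Gpx6 were listed at 0 in all 6.

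**Figure D3:**
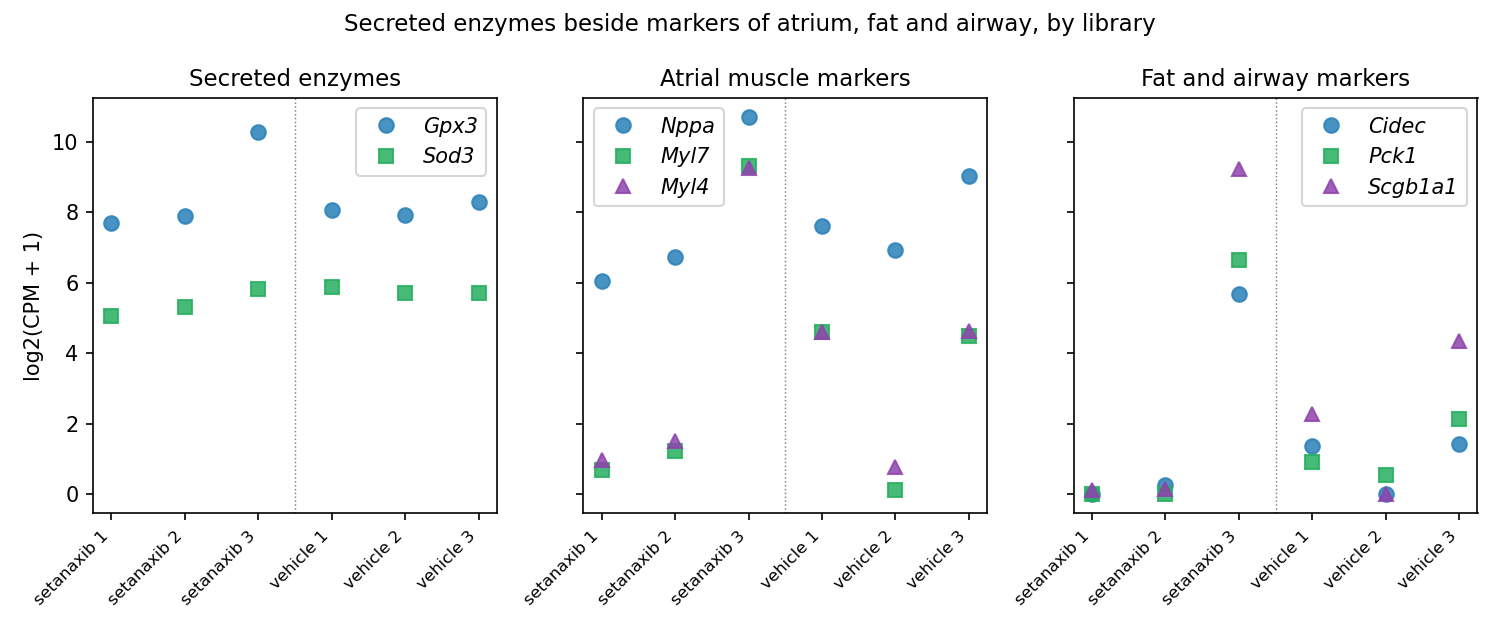
log2(CPM + 1) in each library for the secreted enzymes Gpx3 and Sod3 (left), 3 atrial muscle markers (middle) and 3 fat and airway markers (right), with setanaxib libraries left of the dotted line. Gpx3 and all 6 markers are highest in setanaxib replicate 3, while Sod3 at 56.2 CPM in that library is within its vehicle range.

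The 2 cysteine enzymes were low and showed no common direction over the libraries. Gpx7 (ENSMUSG00000028597) was at 2.99, 4.37 and 4.45 CPM in setanaxib replicates 1 to 3, against 4.61, 4.26 and 3.14 CPM in vehicle replicates 1 to 3. Gpx8 (ENSMUSG00000021760) was at 1.12, 1.53 and 1.95 CPM in setanaxib replicates 1 to 3, against 1.05, 1.82 and 1.89 CPM in vehicle replicates 1 to 3. Each group held both low and high libraries for both genes. The log2 fold changes were -0.02 (edgeR adjusted p = 0.992, SE 0.23) for Gpx7 and -0.05 (edgeR adjusted p = 0.986, SE 0.33) for Gpx8. Their 95% intervals, -0.59 to 0.54 and -0.84 to 0.74, leave room for changes of 1.45-fold and 1.67-fold upward. The values were -0.12 for Gpx7 and -0.26 for Gpx8 without setanaxib replicate 3. Gpx8 overlaps Cdc20b on the opposite strand, which was listed at 0 in all libraries.

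Leaving out setanaxib replicate 3 changed which members separated the groups. In the other 5 libraries the groups did not overlap for 4 of 9 members, against 34.2% of all tested genes (15.7% higher and 18.4% lower). Sod1 was higher, and Sod3, Gpx1 and Gpx3 were lower, in both setanaxib libraries than in all 3 vehicle libraries. edgeR called 0 members in this setting, where it called 0.00479% of all genes. For Sod1 the unadjusted p was 0.0464 and for Sod3 0.00226, and 13.6% of all genes had an unadjusted p under 0.05.

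**Figure D4:**
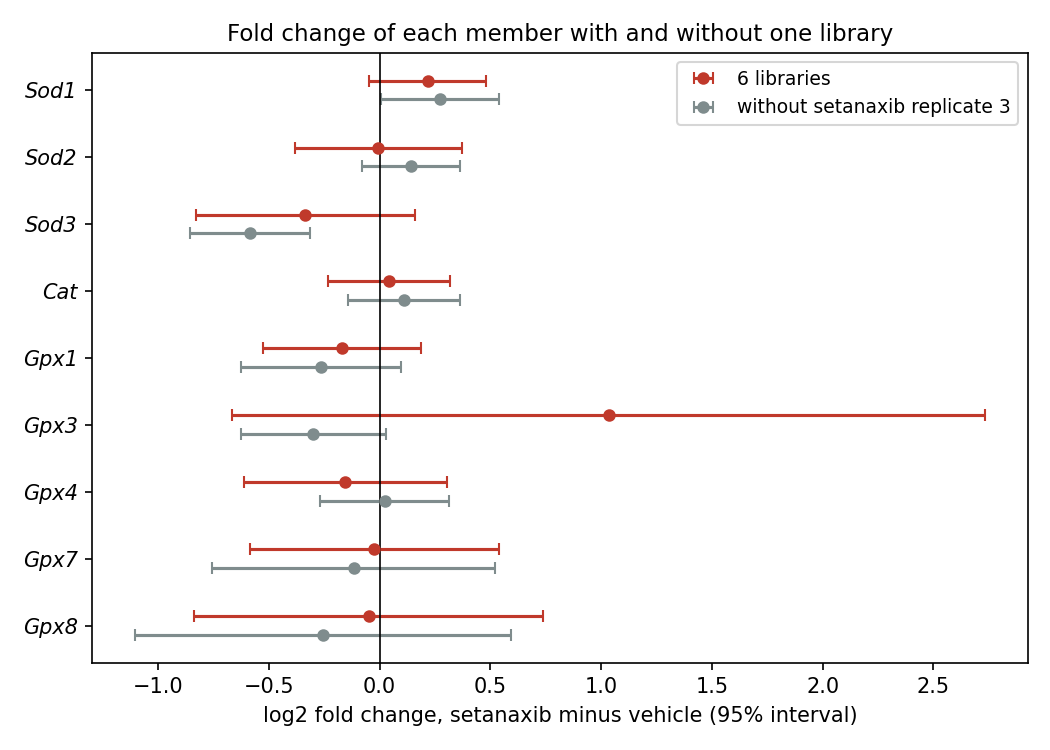
log2 fold change of setanaxib minus vehicle with its 95% interval for each enzyme, from all 6 libraries (red, upper) and without setanaxib replicate 3 (grey, lower). Gpx3 lies at 1.03 with all 6 libraries and at -0.30 without that one, and Sod3 at -0.34 and -0.59.

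Ratios of members within a library do not depend on scaling between libraries, and 4 were compared. The log2 ratio of Sod3 to Sod1 was -1.49, -1.18 and -0.52 in setanaxib replicates 1 to 3, against -0.23, -0.69 and -0.49 in vehicle replicates 1 to 3. The difference of means was -0.59 (exact permutation test, two-sided, p = 0.2, adjusted p = 0.4 over the 4 ratios), with overlapping groups. The log2 ratio of Sod2 to Sod1 averaged 2.20 ± 0.193 with setanaxib and 2.44 ± 0.137 with vehicle (exact permutation p = 0.2, adjusted p = 0.4; SD, n = 3 each). The log2 ratio of Cat to Gpx1 averaged 1.75 ± 0.285 with setanaxib and 1.53 ± 0.0449 with vehicle (exact permutation p = 0.4, adjusted p = 0.533). The log2 ratio of Gpx3 to Gpx1 averaged 3.05 ± 1.27 with setanaxib and 2.34 ± 0.290 with vehicle (exact permutation p = 0.6, adjusted p = 0.6). With 3 libraries against 3 this test cannot go below 0.1, so no ratio could pass the threshold. Without setanaxib replicate 3 the differences were -0.87 for Sod3 to Sod1, -0.14 for Sod2 to Sod1, 0.38 for Cat to Gpx1 and -0.021 for Gpx3 to Gpx1.

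Genes whose pattern over the 6 libraries was most like that of Sod1 were found among 8574 genes whose log2 CPM averaged 3 or more. They were Gm5905, Sgms1, Lamp2, Dusp5 and Lypla2, with Pearson correlations of log2 CPM from 0.957 to 0.987, and 65 genes in all reached 0.9. For Gpx3, a search added after its values were seen gave Pam, Frmd4b, Hipk2, Letmd1 and Tcf7l2, with correlations from 0.994 to 0.997, and 273 genes reached 0.9. Pam, which encodes a peptide-amidating enzyme abundant in atrial granules, was at 521, 583 and 1782 CPM in setanaxib replicates 1 to 3, against 673, 611 and 743 CPM in vehicle replicates 1 to 3. All 5 genes like Gpx3 were highest in setanaxib replicate 3, which sets these correlations. The libraries of a group share their treatment, and a correlation over 6 points is a description.

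Genes that supply metals to the dismutases were examined next. Of 8 tested genes of copper and manganese supply, 5 were higher, edgeR called 0, and the median log2 fold change was 0.05. Ccs, the chaperone that loads copper into Sod1, was at 3.24, 3.48 and 3.11 CPM in setanaxib replicates 1 to 3, against 2.51, 2.51 and 2.43 CPM in vehicle replicates 1 to 3. All 3 setanaxib libraries were above all vehicle libraries, as holds for 8.11% of all genes in this direction. Its log2 fold change was 0.40 (edgeR adjusted p = 0.535, SE 0.14). The copper pump Atp7a had a log2 fold change of 0.40 (edgeR adjusted p = 0.682, SE 0.21) and the metal importer Slc39a8 of 2.13 (edgeR adjusted p = 0.848, SE 2.09), both with overlapping groups. The value of Slc39a8 was -0.78 without setanaxib replicate 3.

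Of 10 genes of selenoprotein synthesis and selenium supply, 8 were higher, against 51.6% of all genes, and edgeR called 0. The median log2 fold change was 0.14, and 0.13 without setanaxib replicate 3. Sephs1 averaged 13.0 ± 0.467 CPM with setanaxib and 11.7 ± 0.269 CPM with vehicle (SD, n = 3 each). Its groups did not overlap, as holds for 8.11% of all tested genes in this direction. Its log2 fold change was 0.15 (edgeR adjusted p = 0.712, SE 0.09). Sephs2, the selenophosphate synthetase, had a log2 fold change of 0.16 (edgeR adjusted p = 0.791, SE 0.12), and Trnau1ap, which binds the selenocysteine transfer RNA, of 0.21 (edgeR adjusted p = 0.779, SE 0.15). Beside these, the selenium enzymes Gpx1, Gpx3 and Gpx4 had log2 fold changes of -0.17, 1.03 and -0.15. Without setanaxib replicate 3 they were -0.26, -0.30 and 0.02.

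Genes of the peroxisome, where catalase works, were taken next. Of 15 peroxisome biogenesis genes, 9 were higher and 6 lower, edgeR called 0, and the median log2 fold change was 0.06. Pex10 and Pex19, which serve the import of peroxisomal proteins, had log2 fold changes of -0.17 and -0.18 with overlapping groups (edgeR adjusted p = 0.761 and 0.770), and -0.088 and -0.065 without setanaxib replicate 3. Of 10 peroxisomal oxidases and transporters, 6 were higher and edgeR called 0. Abcd2, a fatty acid transporter of the peroxisomal membrane, was at 5.13, 6.58 and 10.7 CPM in setanaxib replicates 1 to 3, against 4.03, 2.82 and 4.41 CPM in vehicle replicates 1 to 3. The groups did not overlap for Abcd2, as holds for 8.11% of all tested genes in this direction. Its log2 fold change of 0.996 (edgeR adjusted p = 0.490, SE 0.32) was 0.64 without setanaxib replicate 3. Paox and Acox3 had log2 fold changes of 0.24 and -0.12 with overlapping groups (edgeR adjusted p = 0.855 and 0.901), and without setanaxib replicate 3 they were -0.019 and -0.22.

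The list of peroxiredoxins and thioredoxins, another route of peroxide removal, had a median log2 fold change of 0.0049. The list of glutathione and NADPH supply had a median of 0.045, beside 0.011 for all tested genes. Without setanaxib replicate 3 these medians were 0.16 and 0.18, beside -0.0042 for all tested genes. Of 13 peroxiredoxins, thioredoxins and their partners, 7 were higher and 6 lower, edgeR called 0, and 0 had groups that did not overlap, against 17.6% of all tested genes. Txnip, the thioredoxin-binding protein, averaged 605 ± 251 CPM with setanaxib and 386 ± 121 CPM with vehicle (SD, n = 3 each), with a log2 fold change of 0.65 (edgeR adjusted p = 0.696, SE 0.36) that was 0.28 without setanaxib replicate 3. Txn1 and Txnrd2 had log2 fold changes of -0.15 and -0.18 (edgeR adjusted p = 0.835 and 0.846), and -0.033 and -0.036 without that library. Of 15 tested genes of glutathione and NADPH supply, 10 were higher and edgeR called 0. Gclc, the catalytic subunit that starts glutathione synthesis, was at 20.0, 13.2 and 14.1 CPM in setanaxib replicates 1 to 3, against 10.5, 10.7 and 11.6 CPM in vehicle replicates 1 to 3. Every setanaxib library was above every vehicle library, as holds for 8.11% of all tested genes. Gclc had a log2 fold change of 0.52 (edgeR adjusted p = 0.508, SE 0.18). Its partner Gclm and the pentose phosphate enzyme Tkt had log2 fold changes of 0.30 and 0.64 with overlapping groups (edgeR adjusted p = 0.789 and 0.798), and without setanaxib replicate 3 they were 0.50 and -0.20.

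Enzymes that make superoxide or hydrogen peroxide were mostly lower, with 10 of 13 tested below vehicle, against 48.4% of all genes, and a median log2 fold change of -0.39. edgeR called 0 of them. The median was -0.11 without setanaxib replicate 3. Cybb, the catalytic subunit of the phagocyte oxidase, averaged 7.80 ± 2.45 CPM with setanaxib and 12.6 ± 1.29 CPM with vehicle (SD, n = 3 each), with a log2 fold change of -0.70 (edgeR adjusted p = 0.540, SE 0.25). Its partner Ncf4 had a log2 fold change of -1.22 (edgeR adjusted p = 0.452, SE 0.36). The groups did not overlap for either gene. Beside these phagocyte genes, all 8 macrophage markers were lower with groups that did not overlap, as holds for 9.46% of all tested genes, with sums of 207, 258 and 231 CPM in setanaxib replicates 1 to 3, against 335, 418 and 327 CPM in vehicle replicates 1 to 3, and none at 0 throughout a group. The part of macrophages in these values was not tested. Maob, the mitochondrial monoamine oxidase that releases hydrogen peroxide, had the opposite sign. It averaged 26.2 ± 0.760 CPM with setanaxib and 21.0 ± 0.980 CPM with vehicle (SD, n = 3 each). The groups did not overlap, as holds for 8.11% of all tested genes in this direction. Its log2 fold change was 0.32 (edgeR adjusted p = 0.418, SE 0.08), and DESeq2 called it higher (adjusted p = 0.00547), in a fit that called 2.31% of all genes.

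Among 14 regulators of antioxidant genes, 9 were higher, edgeR called 0, and the median log2 fold change was 0.14. Foxo3, a transcription factor known to drive Sod2 and Cat, was at 175, 202 and 157 CPM in setanaxib replicates 1 to 3, against 139, 125 and 136 CPM in vehicle replicates 1 to 3. The groups did not overlap, as holds for 8.11% of all tested genes in this direction. The log2 fold change was 0.42 (edgeR adjusted p = 0.445, SE 0.12). DESeq2 called Foxo3 higher (adjusted p = 0.0461), in a fit that called 2.31% of all genes. The deacetylase Sirt1 had a log2 fold change of 0.33 (edgeR adjusted p = 0.548, SE 0.12) with groups that did not overlap, and the coactivator Ppargc1a of 0.28 (edgeR adjusted p = 0.622, SE 0.12) with overlapping groups. Sod2 and Cat, both described above, had log2 fold changes of -0.01 and 0.04, and of 0.14 and 0.11 without setanaxib replicate 3. Of 10 genes of oxidative folding in the endoplasmic reticulum, the compartment of Gpx7 and Gpx8, 4 were higher and 6 lower, edgeR called 0, and the median was -0.0088, or -0.055 without setanaxib replicate 3. Qsox2, Vkorc1l1 and P4hb had the lowest p of that list, with log2 fold changes of 0.16, -0.06 and -0.06 (edgeR adjusted p = 0.899, 0.918 and 0.931), and that of Qsox2 was 0.052 without the same library.

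**Figure D5:**
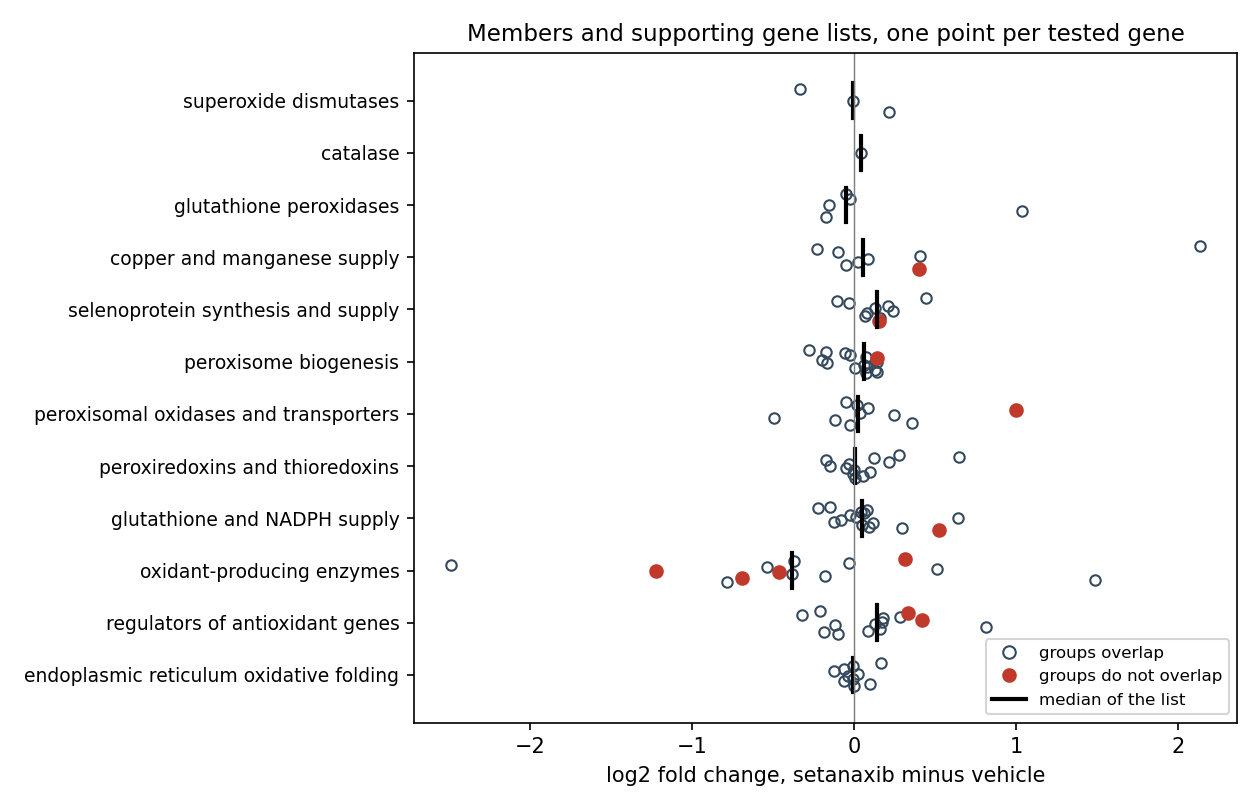
log2 fold change of setanaxib minus vehicle for each tested gene of the 3 enzyme families and the supporting lists, with a black bar at each list's median and filled red points where the 3 setanaxib and 3 vehicle libraries do not overlap. The 9 enzymes are all open points, and the oxidant-producing enzymes have a median of -0.39, which was -0.11 without setanaxib replicate 3.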

How the data were processed

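The authors deposited 1 table of estimated counts, whole numbers with no scaling, for 50385 genes in 6 heart libraries. No rounding of these expected counts was needed for a count test. The submitters' processing notes name the build GRCm39 and, with no step assigned to any, the tools DESeq2 1.42.0, featureCounts 2.0.1, STAR 2.5.4b and FastQC 0.11.9. Per the file headers, row and column names have the form of StringTie's count script, a tool absent from those notes. Each library held 30 to 40 genes at a value of 1 and 157 to 188 at a value of 2, which direct read tallies would not give. RNA selection and strand are not given in the sources used here.

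Genes were kept with filterByExpr at a minimum count of 10, which left 20472. Libraries were scaled by the trimmed mean of M values (TMM). Setanaxib was compared with vehicle by the two-sided quasi-likelihood F test of edgeR 4.0.16 in R 4.3.3, with Benjamini-Hochberg adjustment over all 20472 genes and a threshold of 0.05. Standard errors and 95% intervals were derived from the F statistic. Alternatives were DESeq2 1.42.0, limma-voom (limma 3.58.1), another scaling, no filter, mitochondrial genes left out, and each library left out in turn. The edgeR fit was tested on simulated counts for this comparison of 20472 genes. It called 18% of genes changed by 1 on the log2 scale, 75% of those changed by 2, and 0.0247% of unchanged genes. Its 95% interval held the true value for 95.4% of unchanged genes. On the same counts DESeq2 called 66% of genes changed by 1, 96% of those changed by 2, and 0.459% of unchanged genes. These were 93 of 20272 unchanged genes with DESeq2, against 5 with edgeR, so DESeq2 called more genes in error.

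The members, the 10 other pathway lists and the 11 marker lists were chosen with earlier results of these data known. Named genes are all 9 members, the 3 of lowest edgeR p in each other pathway list, and for the member of lowest p the 5 genes of most similar pattern. Of these, 1 gene that this rule selects is not reported here. Overlapping genes, the Gpx4 pseudogene, Nfe2l2, cell markers and the genes like Gpx3 were named in addition, after their values were seen. Symbols with more than 1 entry, 80 in all, were read from the entry with the larger total. Transcript lengths and coding sequences came from GENCODE M21 and promoters from RefSeq, both on GRCm38, so they are not on the build of the counts. Replicates were numbered in record order within each group, and these numbers pair no animals.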

Additional observations from a re-analysis of the deposited data

How the results depend on the processing

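Over all genes, edgeR called 1, DESeq2 505 and limma-voom 0, and each other scaling or filter gave 1. With 1 library left out in turn, edgeR called 0 (each vehicle library) to 1 and DESeq2 523 to 1392. Of the 9 members, 0 were called in each of these settings, except for Sod3 by DESeq2 without setanaxib replicate 3, so that DESeq2 called 0 to 1. The DESeq2 fits without a library were added after seeing the data. Sod1, Sod3 and Gpx1 kept their direction in every setting. Over edgeR and DESeq2 with 1 library left out, the log2 fold change ranged from -0.061 to 0.11 for Cat, from -0.30 to 1.424 for Gpx3, from -0.28 to 0.024 for Gpx4, from -0.18 to 0.13 for Gpx7, from -0.28 to 0.12 for Gpx8 and from -0.14 to 0.14 for Sod2. Their directions turned, and for Gpx3 and Gpx4 only without setanaxib replicate 3; the cause was not tested. The difference in the log2 ratio of Gpx3 to Gpx1 ranged from -0.021 to 1.13, while the other 3 ratios kept their direction. No paired analysis was possible because the replicate numbers follow record order and pair no animals.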
